A study of Saccharomyces cerevisiae with 2 samples.

Results

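The genes described here encode the assembly factors of the large ribosomal subunit in budding yeast, Saccharomyces cerevisiae. They were chosen by systematic name as proteins that bind the maturing large subunit and leave before it translates, and 56 of 56 were found among the 6692 genes counted. By textbook role, 38 were grouped as nucleolar, 10 as nucleoplasmic, and 8 as late and export factors. NOP2, an rRNA methyltransferase of the nucleolus, NOG1, a GTPase that stays on the particle until it reaches the cytoplasm, and NMD3, the export adaptor, served as markers of the list, and each of these genes lay above the median of all genes when both replicates were averaged.

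RNA was sequenced in 2 libraries, replicate 2 and replicate 1 of a single group, from strain yJL59a after methionine depletion. The strain was given as MATa with the alleles ade2-1, can1-100, ura3-1, trp1-1 and his3-11,15 and a mutant allele of LEU2, and it carried MET3-promoter reporters at CDC20 (CDC20::MET3pr-mCherry::URA3) and at CWC23 (CWC23::MET3pr-GFP::KanMX). Both libraries share all of this, and there is no other strain or medium to set them against, so the data give the level of each gene and the difference between replicates. The study calls its samples biologically independent, and cultures in which fewer cells transcribe a gene cannot be told apart from cultures with less RNA of that gene per cell.

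Ribosome assembly begins in the nucleolus, where RNA polymerase I transcribes the rRNA precursor and early factors fold and cleave it. The particle of the large subunit then moves through the nucleoplasm, is passed through the nuclear pore, and sheds its last factors in the cytoplasm, from where they return to the nucleus. In yeast, genes for these factors are known as a co-regulated set, often called the ribosome biogenesis regulon, whose promoters tend to carry the motifs PAC (polymerase A and C) and RRPE (ribosomal RNA processing element). DOT6 and TOD6 are repressors known to bind PAC, STB3 is a protein known to bind RRPE, and SFP1 is an activator of the regulon.

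The libraries held 35367508 counts in replicate 2 and 34052011 counts in replicate 1. All 56 genes were measured far above the floor of 3 counts, with 265 to 16232 counts per gene and library. Levels are given as FPKM, computed from the counts with each gene's coding length, and an error is the SD over the replicates (n = 2). Pheromone genes did not match the label MATa, since the a-factor gene MFA1 stood at a mean of 8.96 FPKM and the alpha-factor gene MF(ALPHA)1 at 2401 FPKM. The strain list as read here gives MATa for every strain, although the study also used MATalpha cells. The label may thus not tell the mating types apart, and the strain is called by its number here. Results below rest on both libraries, and values without one or the other are those of the remaining replicate.

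Both motifs can be read directly in the promoters of the reference genome. The paper derived all its strains from a w303 background, and the promoters of the strain itself were not read here. The stretches below are shown because they belong to the 3 marker genes, to the 3 genes with the lowest ratio of replicate 2 to replicate 1 (SSF1, MAK16 and NOP15) and to the 3 with the highest (RSA3, TIF6 and SPB4). Each runs 5′ to 3′ on the gene's own strand, holds the nearest pair of both motifs with a few bases around it, and comes from the RefSeq sequence of the R64 assembly (sacCer3). Capitals mark the core of PAC, GATGAG or its reverse complement CTCATC, and the core of RRPE, AAAAATTT or its reverse complement AAATTTTT.
NOP2 (chrXIV:510387-510424, plus strand, bases -153 to -116 before the start codon): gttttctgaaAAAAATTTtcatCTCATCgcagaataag
NOG1 (chrXVI:370825-370864, plus strand, bases -153 to -114): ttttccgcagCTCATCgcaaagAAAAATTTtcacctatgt
NMD3 (chrVIII:443660-443698, plus strand, bases -168 to -130): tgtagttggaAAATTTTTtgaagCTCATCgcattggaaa
SSF1 (chrVIII:229177-229248, plus strand, bases -158 to -87): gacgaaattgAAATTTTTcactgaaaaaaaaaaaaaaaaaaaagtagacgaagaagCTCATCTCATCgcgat
MAK16 (chrI:101254-101290, minus strand, bases -145 to -109): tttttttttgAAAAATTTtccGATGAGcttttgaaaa
NOP15 (chrXIV:418583-418651, minus strand, bases -163 to -95): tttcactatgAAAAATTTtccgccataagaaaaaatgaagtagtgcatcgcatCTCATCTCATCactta
RSA3 (chrXII:579124-579160, minus strand, bases -136 to -100): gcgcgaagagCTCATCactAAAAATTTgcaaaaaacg
TIF6 (chrXVI:593248-593319, minus strand, bases -250 to -179): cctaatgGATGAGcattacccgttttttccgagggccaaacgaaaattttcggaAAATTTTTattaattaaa
SPB4 (chrVI:146986-147046, minus strand, bases -112 to -52): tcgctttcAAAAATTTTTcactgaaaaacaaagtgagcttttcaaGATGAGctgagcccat
In SSF1 and NOP15 a pair of PAC cores overlaps by its outer base, and in SPB4 the RRPE core overlaps its own reverse complement. NOP2, NMD3, MAK16, RSA3 and NOG1 have their cores within a few bases of each other, whereas SSF1, NOP15, TIF6 and SPB4 have them farther apart, and these include genes of the lowest and of the highest ratios. PAC and RRPE cores cannot overlap each other, since RRPE holds neither G nor C.

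As a group, the assembly factor genes had RNA levels close to that of the typical yeast gene. Their median was 53.7 ± 15.7 FPKM, with 42.7 FPKM in replicate 2 and 64.9 FPKM in replicate 1. The median of all 6007 genes with a length was 45.9 ± 1.49 FPKM, with 44.9 FPKM in replicate 2 and 47.0 FPKM in replicate 1, so the list lay below the typical gene in replicate 2 and above it in replicate 1. Of the 56 genes, 33 exceeded the all-gene median by their mean. Within the list, levels ran from 5.78 FPKM for the helicase gene DBP7 to 255.9 FPKM for TIF6, a 44.2-fold range. All 56 genes together took 0.415% of the counts in replicate 2 and 0.622% in replicate 1.

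**Figure D1:**
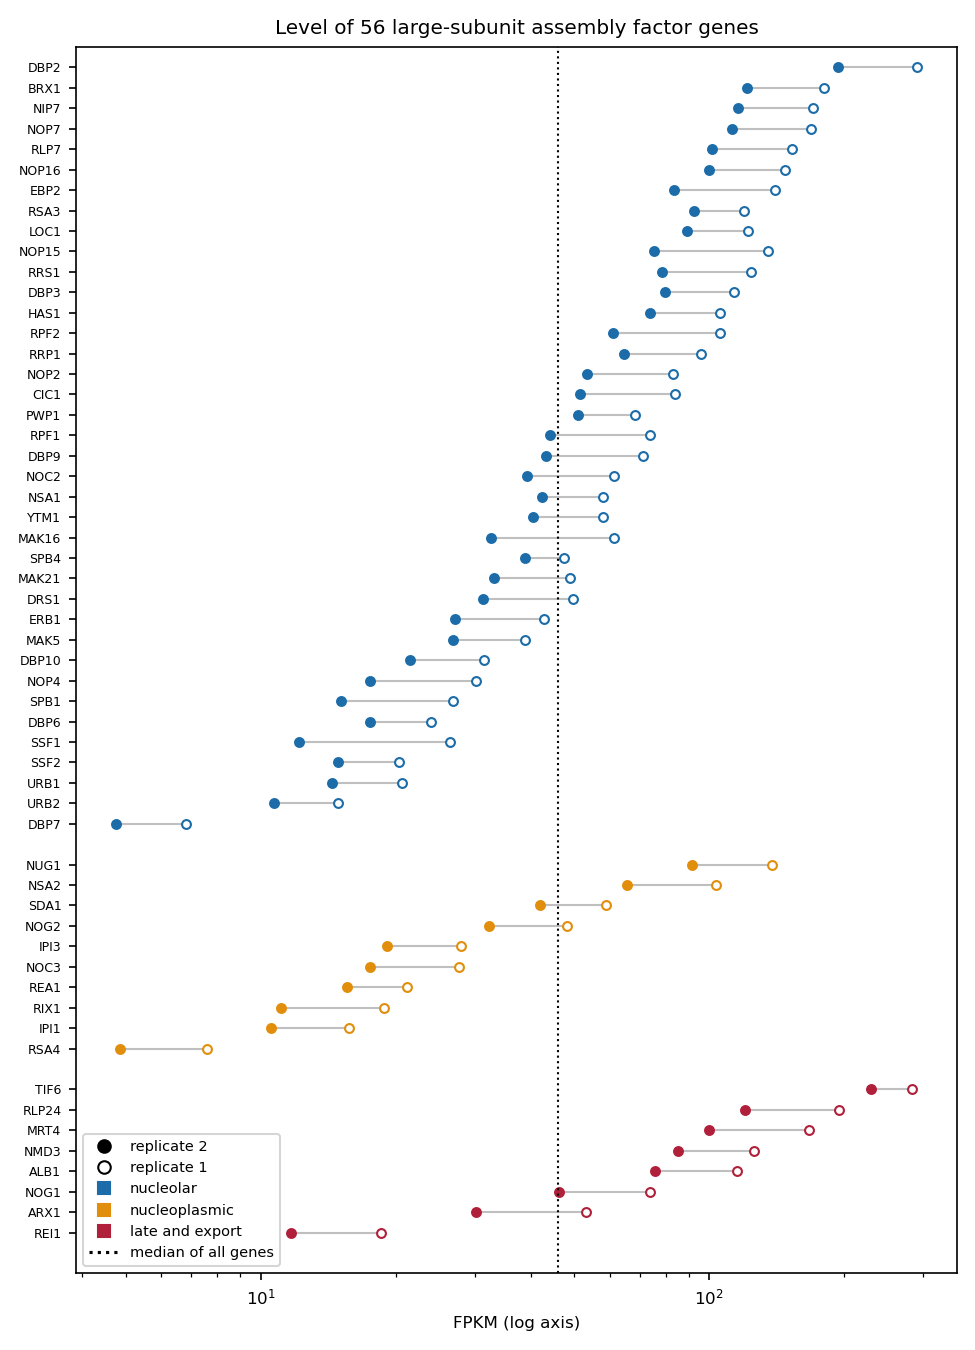
FPKM (log axis) of each assembly factor gene in replicate 2 (filled) and replicate 1 (open), grouped by stage and sorted by mean within it, with the all-gene median of 45.9 FPKM as a dotted line. Every filled point lies left of its open point, and the levels of the nucleolar genes span nearly the whole range of the list.

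The marker genes differed in level but moved alike between replicates. NOP2 (YNL061W) had 53.3 FPKM in replicate 2 and 83.1 FPKM in replicate 1. NOG1 (YPL093W) had 46.2 FPKM in replicate 2, 73.6 FPKM in replicate 1 and a mean of 59.9 ± 19.4, close to the all-gene median in replicate 2 and well above it in replicate 1. NMD3 (YHR170W) had 85.4 FPKM in replicate 2, 126 FPKM in replicate 1 and a mean of 106 ± 28.6, the highest of the markers in both.

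The nucleolar genes had a median of 58.0 ± 18.5 FPKM, with 43.6 FPKM in replicate 2 and 69.7 FPKM in replicate 1. The highest was DBP2, a DEAD-box helicase that also acts on mRNA, with 193 FPKM in replicate 2 and 290.5 FPKM in replicate 1 (mean 242 ± 68.8). It was followed by BRX1, a protein of the Brix domain family, with 121 FPKM in replicate 2 and 180.3 FPKM in replicate 1 (mean 151 ± 41.9). NIP7, a small RNA-binding protein that works with NOP2, had 116 FPKM in replicate 2 and 170.1 FPKM in replicate 1 (mean 143 ± 38.2). At the low end stood URB2, a large protein of the earliest particles, and DBP7, a helicase of the same step. URB2 had 10.7 FPKM in replicate 2 and 14.9 FPKM in replicate 1. DBP7 had 4.76 FPKM in replicate 2 and 6.81 FPKM in replicate 1, the lowest level of the list, still on 375 and 517 counts.

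The URB1, URB2, DBP6 and RSA3 proteins act together in the first particles of the large subunit. RSA3 stood far above its partners at a mean of 106 ± 19.1 FPKM, DBP6, the helicase of the group, had 20.7 ± 4.52 FPKM, URB1 17.5 ± 4.38 FPKM and URB2 12.8 ± 2.94 FPKM. The highest was 8.29-fold over the lowest, 8.64-fold in replicate 2 and 8.04-fold in replicate 1. This was the widest gap in level among the 10 complexes and pairs compared, but it depends on the division by coding length. In CPM, which scales counts to the library total only, URB1 had a mean of 92.8 and RSA3 one of 70.4, URB2 had 45.1 and DBP6 39.2. The gap was then 2.37-fold, between URB1 and DBP6, and narrower than that of NOP7, ERB1 and YTM1 at 3.75-fold.

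Proteins that act in a complex were otherwise encoded by genes within about 4-fold of each other. NOP7, ERB1 and YTM1, which assemble around the spacer between the large-subunit rRNAs and whose release depends on REA1, had means of 141 ± 39.5, 35.0 ± 11.2 and 49.2 ± 12.3 FPKM, so that NOP7 was 4.02-fold over ERB1. NSA1, RPF1, MAK16 and RRP1, which join as a module, were closer at 50.1 ± 11.0, 58.9 ± 21.1, 46.9 ± 20.2 and 80.1 ± 22.1 FPKM, a 1.71-fold range. RPF2 and RRS1, which place the smallest rRNA on the particle, differed by 1.21-fold (83.3 ± 31.4 and 101 ± 32.1 FPKM). MAK21, also named NOC1, pairs with NOC2 early, and NOC2 with NOC3 later. MAK21 stood at 41.0 ± 11.1 FPKM, NOC2 at 50.4 ± 15.6 FPKM and NOC3 at 22.5 ± 7.16 FPKM, so NOC2 was 1.23-fold over its early partner and 2.23-fold over its later one. Across the 10 groups the median gap was 1.94-fold.

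SSF1 and SSF2 are paralogs whose proteins stand in for each other, and their coding sequences were identical at 1254 of 1362 positions (92.1%). Only 4.04% of the 50-base stretches of each also occur elsewhere in the genome, so most reads could be assigned, and both values are still uncertain to that extent. SSF1 had 12.2 FPKM in replicate 2 and 26.5 FPKM in replicate 1. SSF2 had 14.9 FPKM in replicate 2 and 20.4 FPKM in replicate 1. SSF2 was thus the higher paralog in replicate 2 and SSF1 in replicate 1, and their means of 19.3 ± 10.1 FPKM for SSF1 and 17.6 ± 3.88 FPKM for SSF2 did not differ beyond this spread.

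The 10 DEAD-box helicases, enzymes that unwind or remodel rRNA, covered the range from DBP7 to DBP2 with a median of 41.8 ± 9.51 FPKM. Of those not yet given, DBP3 stood at 96.5 ± 24.1 FPKM and HAS1 at 89.8 ± 22.6 FPKM. DBP9 had 57.1 ± 19.7 FPKM, SPB4 43.1 ± 6.07 FPKM and DRS1 40.5 ± 13.0 FPKM. MAK5 (32.8 ± 8.54 FPKM) and DBP10 (26.5 ± 7.09 FPKM) were the next lowest after DBP6 and DBP7. The methyltransferases NOP2 (68.2 ± 21.1 FPKM) and SPB1 (20.9 ± 8.30 FPKM) stood about 3-fold apart.

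Other nucleolar genes filled the middle and the top of the range. RLP7, which resembles the ribosomal protein RPL7, had a mean of 127 ± 36.7 FPKM and NOP16 had 124 ± 33.3 FPKM. EBP2, a partner of BRX1, had 112 ± 40.0 FPKM, and LOC1, which is also known for localizing mRNA, had 106 ± 23.1 FPKM. NOP15 (105 ± 42.3 FPKM) and CIC1 (67.8 ± 22.9 FPKM) both bind the internal spacer of the precursor. PWP1, a WD-repeat protein, stood at 59.7 ± 12.4 FPKM. NOP4, a protein with several RNA-recognition motifs, stood at 23.8 ± 8.93 FPKM.

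The nucleoplasmic genes were the lowest of the stages. Their median was 23.0 ± 6.71 FPKM, with 18.3 FPKM in replicate 2 and 27.8 FPKM in replicate 1, and 3 of 10 exceeded the all-gene median. NUG1, a GTPase, was the highest with 91.7 FPKM in replicate 2 and 138 FPKM in replicate 1 (mean 115 ± 32.9). SDA1, which is needed for the particle to leave the nucleus, had 41.8 FPKM in replicate 2 and 58.9 FPKM in replicate 1 (mean 50.4 ± 12.1). NSA2, which binds the particle before it is exported, had 65.4 FPKM in replicate 2 and 103 FPKM in replicate 1 (mean 84.4 ± 26.8). Only 46.6% of the coding sequence of NSA2 is free of other reading frames of at least 100 codons, so its counts may include reads from the other strand. IPI1 had 10.5 FPKM in replicate 2 and 15.8 FPKM in replicate 1. RSA4, which the ATPase REA1 pulls from the particle, had 4.84 FPKM in replicate 2 and 7.57 FPKM in replicate 1 (mean 6.20 ± 1.93).

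RIX1, IPI1 and IPI3 form a complex that docks REA1, the very large AAA-ATPase also named MDN1. Their means were 15.0 ± 5.48 FPKM for RIX1, 13.1 ± 3.70 FPKM for IPI1 and 23.5 ± 6.26 FPKM for IPI3, a 1.79-fold range. REA1 stood with them at 18.4 ± 4.03 FPKM. Its 8091 counts in replicate 2 and 10648 in replicate 1 were exceeded in the list by DBP2 alone, over a coding sequence of 14733 bases. NOG2, the GTPase that must leave before export, had 40.2 ± 11.2 FPKM.

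The late and export genes had the highest median, 100.5 ± 28.2 FPKM, with 80.5 FPKM in replicate 2 and 120.4 FPKM in replicate 1. TIF6 keeps the large subunit from joining the small one until it is mature, and its gene had the highest mean of the list, with 229 FPKM in replicate 2 and 283 FPKM in replicate 1 (255.9 ± 37.9), though DBP2 was the higher of them in replicate 1. RLP24 and MRT4 are placeholders for ribosomal proteins that replace them in the cytoplasm. RLP24 had 120.0 FPKM in replicate 2 and 195 FPKM in replicate 1, and MRT4 had 99.8 FPKM in replicate 2 and 167 FPKM in replicate 1. ALB1 and ARX1 travel together on the exported particle, and REI1 is needed to take them off again. ALB1 had 75.7 FPKM in replicate 2 and 115 FPKM in replicate 1 (mean 95.3 ± 27.8). ARX1 had 30.2 FPKM in replicate 2 and 53.0 FPKM in replicate 1 (mean 41.6 ± 16.1), so that ALB1 was 2.29-fold higher. REI1 was the lowest of the stage with 11.7 FPKM in replicate 2 and 18.5 FPKM in replicate 1 (mean 15.1 ± 4.85), and 38.3% of its coding sequence is overlapped by another annotated gene.

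Set against the late and export genes, the nucleolar genes had 0.577 ± 0.0266 of their median FPKM, 0.541 in replicate 2 and 0.579 in replicate 1. The direction was thus the same in both libraries, but the stages overlapped widely, from 5.78 to 242 FPKM for nucleolar and from 15.1 to 255.9 FPKM for late and export genes. The size of the gap depends on how the stages are drawn. With NOG1, RLP24, TIF6 and MRT4, which join the particle in the nucleolus, counted as nucleolar, the ratio of medians was 0.873, and in CPM it was 0.828.

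Except for RLP7 against RPL7B, these genes had RNA levels far below those of the ribosomal proteins they resemble. RLP24 stood at 157 ± 52.9 FPKM, against 2308 ± 128 FPKM for RPL24A and 1924 ± 131 FPKM for RPL24B. MRT4 stood at 133 ± 47.4 FPKM, against 1110 ± 86.7 FPKM for RPP0. RLP7 stood at 127 ± 36.7 FPKM, against 1484 ± 66.5 FPKM for RPL7A and 71.7 ± 3.47 FPKM for RPL7B, and thus lay between the copies of its counterpart. RPL7A and RPL7B share 62.3% of their 50-base stretches, so the split between them is uncertain. Only 38.2% of the coding sequence of RPL7B and 52.2% of that of RPP0 is free of other reading frames.

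Between the replicates the list moved as one. Every one of the 56 genes had a lower share of the library in replicate 2 than in replicate 1, with a median ratio of 0.667 and a range of 0.460 to 0.819. Of the 5813 genes tested that had a length, 3375 had a ratio below 1. A gene is called lower here where its ratio was 0.8 or less. By this call 54 of 56 were lower in replicate 2, against 9.50% of the 6188 genes with a mean of at least 10 counts (588 genes). None was higher in replicate 2 by the same factor, against 5.53% of all genes tested. Past 1.5-fold, 28 of 56 were lower, against 3.01%. The median of all genes was 0.978, with quartiles of 0.903 and 1.06. With 1 library on each side, these values describe the 2 libraries and carry no test. The genes and the lists compared below were chosen with earlier results of these data known.

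Genes counted as deeply were not lower more often than other genes. Among the 4846 genes with mean counts in the range of the list, 7.72% were called lower in replicate 2. Ranked from the lowest ratio, the 56 genes had a median rank of 186.5 of 6188 and all lay within the lowest 715, and 54 were in the lowest 10%. Of the 39 genes free of shared and overlapping sequence, 37 were called lower. Scaling by TMM or by DESeq2 size factors moved the all-gene median by 0.03 on the log2 scale, left 56 of 56 genes below 1, and gave 54 of 56 called lower.

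**Figure D2:**
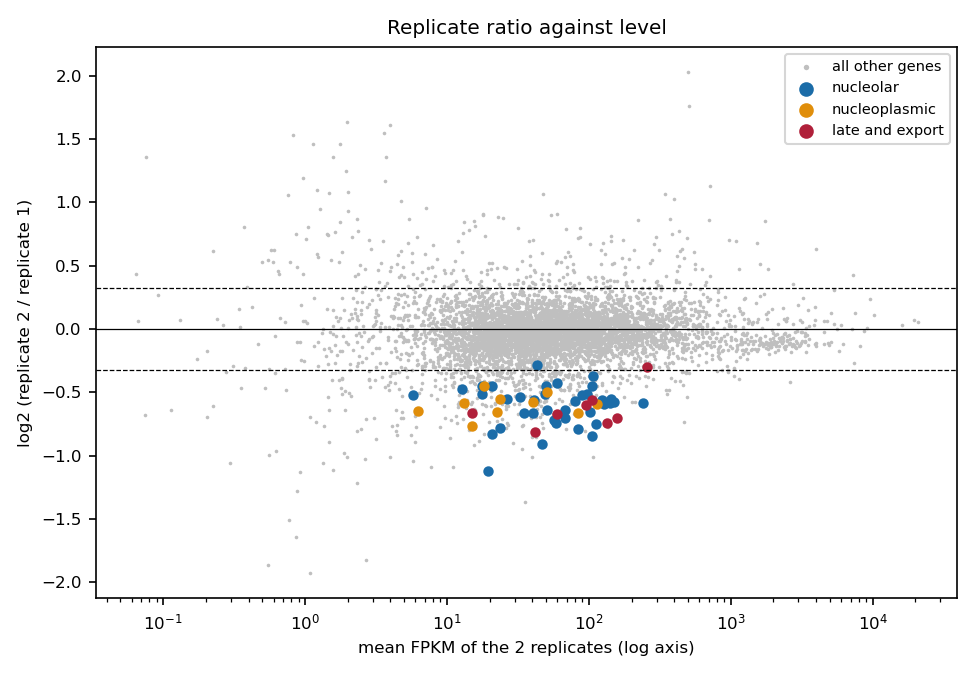
Log2 ratio of replicate 2 to replicate 1 against mean FPKM (log axis) for all genes with a length and a mean of at least 10 counts, with the assembly factor genes coloured by stage and dashed lines at a ratio of 0.8 and its inverse. The coloured points lie in the lower part of the grey cloud at every level from 5.78 to 255.9 FPKM, and 2 of them, SPB4 and TIF6, lie above the lower dashed line. Of the 5757 other genes, 435 also had a ratio of 0.8 or less.

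The lowest ratios belonged to nucleolar genes, the stage that holds 38 of the 56 genes. SPB4 and RSA3, among the highest, are nucleolar too. SSF1 had 587 counts in replicate 2 and 1228 in replicate 1, a ratio of 0.460 with an exact 95% Clopper-Pearson interval of 0.416 to 0.508. Its paralog SSF2, with 716 and 944 counts, had a ratio of 0.730 (0.662 to 0.806), so the intervals of the paralogs did not overlap. MAK16 had 32.6 FPKM in replicate 2 and 61.2 FPKM in replicate 1, a ratio of 0.533 (0.494 to 0.574). NOP15 had 75.1 FPKM in replicate 2 and 135 FPKM in replicate 1, a ratio of 0.557 (0.525 to 0.590). These intervals cover counting error only, and those of SSF1, MAK16 and NOP15 end well below 0.8.

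The highest ratios were those of SPB4, TIF6 and RSA3. SPB4 had 38.8 FPKM in replicate 2 and 47.4 FPKM in replicate 1, a ratio of 0.819 (0.776 to 0.864), and was the gene of the list that differed least between the replicates. TIF6 had a ratio of 0.810 (0.783 to 0.839). For both, the interval includes 0.8 and lies below 1. RSA3 had 92.6 FPKM in replicate 2 and 119.7 FPKM in replicate 1, a ratio of 0.774 (0.731 to 0.819). The genes with the lowest and with the highest ratios held both motif cores in the stretches printed above, which were cut to hold them. Since 44 of the 56 promoters held both, these few genes cannot show whether the cores go with the ratio.

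The stages had similar ratios. The nucleolar genes had a median of 0.673 with 37 of 38 called lower, the nucleoplasmic genes 0.666 with 10 of 10, and the late and export genes 0.629 with 7 of 8. Nucleolar minus late and export, the medians differed by 0.10 on the log2 scale, and the means by 0.03. The quartiles of the stages overlapped, at 0.618 to 0.700 for nucleolar, 0.635 to 0.680 for nucleoplasmic and 0.611 to 0.663 for late and export genes. ARX1 was the lowest of the late and export genes at 0.570 and RIX1 the lowest of the nucleoplasmic genes at 0.589.

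Except for SSF1 and SSF2, the ratios within each of the 10 complexes and pairs lay closer together than the mean levels did. Over the whole list, ratios ran only from 0.460 to 0.819 while levels had a 44.2-fold range. Genes of the list picked without regard to complexes could therefore show the same, and such sets were not compared. NOC2 and NOC3 had ratios of 0.640 and 0.633, NOP2 and NIP7 0.642 and 0.682, and RPF2 and RRS1 0.579 and 0.634. NOP7, ERB1 and YTM1 lay between 0.631 and 0.700. The widest spread was that of SSF1 and SSF2, 1.59-fold between their ratios against a gap of 1.10-fold in mean level, followed by NSA1, RPF1, MAK16 and RRP1 at 1.37-fold, where NSA1 stood at 0.732 and MAK16 at 0.533. In the other 8 groups the ratios differed by 1.01-fold to 1.16-fold.

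Other gene groups of ribosome synthesis were also lower in replicate 2, to different degrees. A list of 29 further large-subunit factors, which include late and accessory proteins such as the mRNA exporters MEX67 and MTR2, had a median ratio of 0.739, and 19 of 29 were called lower. The 54 genes of the small-subunit processome, which builds the other subunit, had a median of 0.687 with 52 of 54 lower. The 19 subunits of RNA polymerases I and III had a median of 0.784 with 11 of 19 lower. The 137 cytosolic ribosomal protein genes, the final components of the ribosome, differed from these with a median of 0.925 and 1 of 137 lower. Of the 137, however, 129 were below 1, against 3375 of the 5813 genes tested that had a length. RPL24A, RPL24B, RPP0, RPL7A and RPL7B had ratios of 0.895 to 0.939, above every assembly factor gene. Of the 588 genes called lower in replicate 2, the assembly factors made up 9.18%, and 451 belonged to none of the lists compared here. The lists do not cover every gene of ribosome synthesis, so some of the 451 may belong to it.

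**Figure D3:**
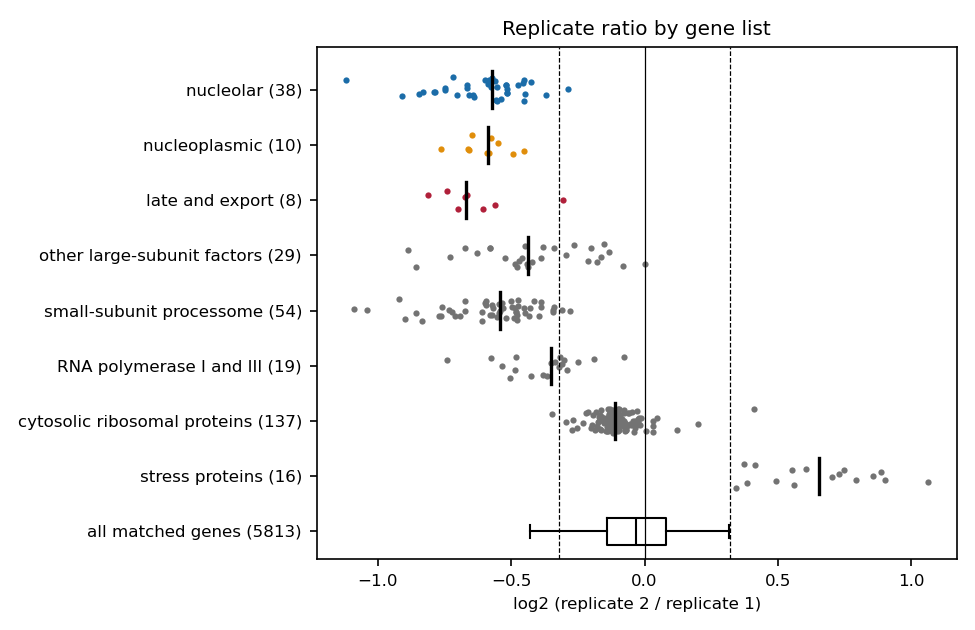
Log2 ratio of replicate 2 to replicate 1 for each gene (points) of the 3 stages and of 5 comparison lists, with a bar at each list's median, and for all matched genes as a box (median, quartiles, whiskers at the 5th and 95th percentiles). Points of all 3 stages lie left of 0, most ribosomal protein genes sit just left of 0, and the 16 stress protein genes lie right of the upper dashed line, the inverse of 0.8.

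The stress protein genes picked for comparison moved the other way. Like the other lists, they were chosen with earlier results of these data known, so they do not speak for stress genes in general. The 16 stress protein genes, which encode heat shock proteins and enzymes of trehalose and glycogen metabolism among others, had a median of 433.7 FPKM in replicate 2 and 255.2 FPKM in replicate 1. All 16 were called higher in replicate 2, against 5.53% of all genes tested. Their ratios ran from 1.27 to 2.09, with a median of 1.57. What part the difference in these genes between the libraries has in the ratios of the assembly factors was not tested. Of the regulators, SFP1 had a ratio of 1.02, STB3 0.991 and DOT6 0.978, all close to the all-gene median. TOD6, with 15.0 FPKM in replicate 2 and 22.9 FPKM in replicate 1, had a ratio of 0.654, within the range of the assembly factors. PAC cores were found before TOD6 and also before DOT6, and before neither SFP1 nor STB3.

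The promoters of the assembly factor genes shared the motifs that the list was not chosen by. Within 250 bases before the start codon, on either strand, 51 of 56 held the PAC core GATGAG (91.1%), against 17.0% of all 5987 promoters of the same length. The RRPE core AAAAATTT was held by 49 of 56 (87.5%), against 13.4%. Both were held by 44 of 56 (78.6%), against 4.99%, and none of the 56 lacked both. At least 2 PAC cores were found in 25 of 56 (44.6%), against 2.47%, with overlapping cores counted singly. With the longer letters GCGATGAG and GAAAAATTT the shares were 62.5% against 3.84% of all promoters and 57.1% against 5.91%. A match describes these letters only and is no evidence that a factor binds there.

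By stage, PAC was found in 36 of 38 nucleolar, 7 of 10 nucleoplasmic and 8 of 8 late and export promoters, and RRPE in 33 of 38, 8 of 10 and 8 of 8. The promoters with RRPE alone were those of NSA1, SPB1, IPI3, RIX1 and IPI1, so that all 3 genes of the RIX1 complex held RRPE without PAC before the start codon. In the 300-base window, which runs 50 bases into the gene, IPI3 gained a PAC core and the others did not. PAC alone was found before LOC1, RRP1, MAK5, DBP10, DBP6, SDA1 and NOC3. Among the comparison lists, the small-subunit processome had PAC in 85.2% and RRPE in 83.3% of its promoters, whereas ribosomal protein genes had PAC in 10.2% and RRPE in 11.7%, below the shares of all promoters.

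The cores also kept to a narrow stretch of the promoter. The 83 PAC cores of the assembly factor genes had a median position of -121 (first base of the match, counted back from the start codon), and the 69 RRPE cores one of -144. Between -160 and -90 lay 78.3% of the PAC cores, against 34.1% of the 1116 PAC cores before other genes. For RRPE the share was 72.5%, against 48.2% of 912. An even spread over the window would put 28.4% there. The stretch from -160 to -90 covers the peak of the assembly factor cores themselves. The higher shares there thus follow in part from its choice. Without it, the quartiles of position were -142.5 and -102.5 for PAC, and -165 and -132 for RRPE. In the 44 promoters with both motifs, the nearest pair had its centres a median of 16 bases apart, with 41 of 44 within 50 bases, and RRPE was the one farther from the start codon in 36 of 44. The strand of the core followed no such pattern, with 44 PAC cores on the gene's strand and 39 on the other. In NOG1, RSA3 and TIF6, printed above, PAC is the farther one.

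**Figure D4:**
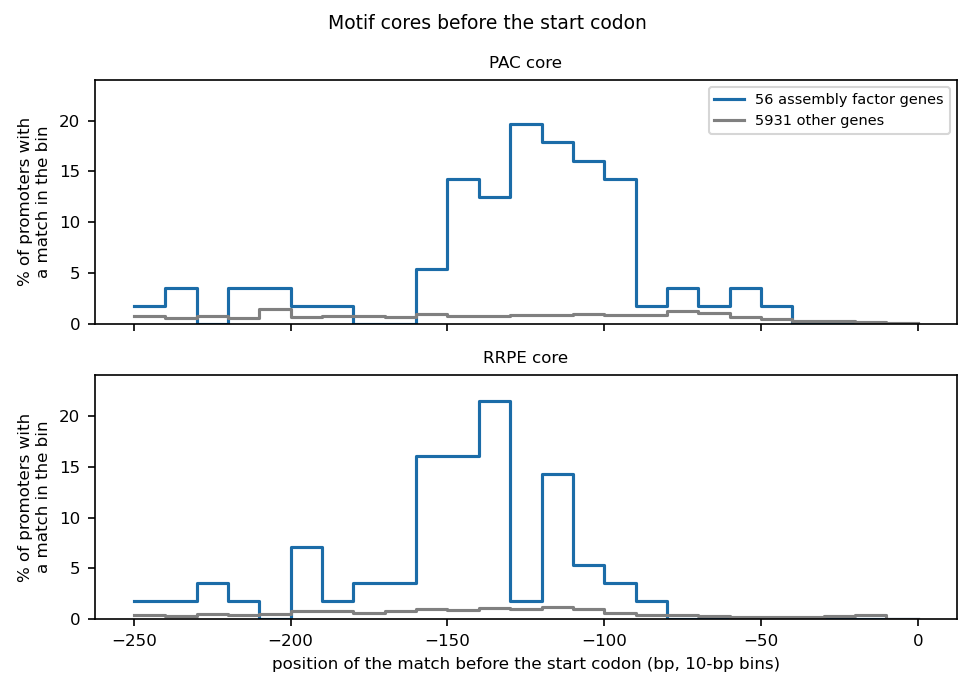
Share of promoters with a PAC core (top) or an RRPE core (bottom) starting in each 10-base bin before the start codon, for the 56 assembly factor genes and 5931 other genes. The assembly factor genes peak at 19.6% for PAC and 21.4% for RRPE between -160 and -90, while other genes stay at or below 1.45% and 1.16% in every bin.

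Of the 6188 genes tested, 5811 had a promoter sequence, here the 250 bases before the start codon, and 377 did not. As 5813 of the genes tested matched the annotation, most of the 377 lacked a match. Among those with one, the median ratio of replicate 2 to replicate 1 was lowest where both cores were present. The 297 genes with both had a median ratio of 0.775, and 55.6% of them were called lower. Genes with PAC alone (668) had a median of 0.960 and 11.8% lower, and genes with RRPE alone (502) one of 0.954 and 8.37% lower. The 4344 genes with neither had a median of 0.988 and 4.65% lower. The assembly factors are part of these counts. Their own ratio differed little by which cores were held, with a median of 0.660 for the 44 with both, 0.689 for the 7 with PAC alone and 0.668 for the 5 with RRPE alone. The number of cores per promoter was not set against the ratio. Whether the motifs have a part in the difference between the libraries was not tested.

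**Figure D5:**
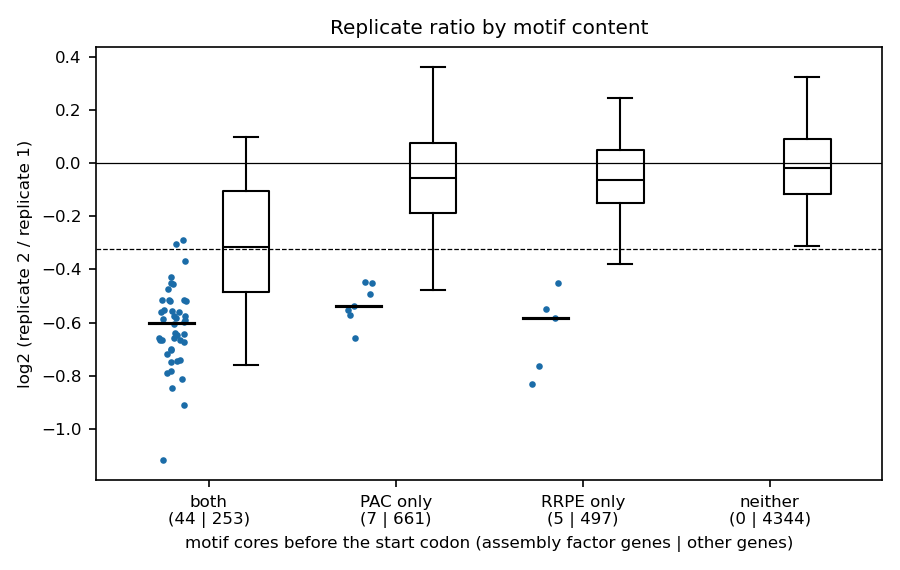
Log2 ratio of replicate 2 to replicate 1 by the motif cores found before the start codon, as points with a bar at the median for assembly factor genes and as boxes (median, quartiles, whiskers at the 5th and 95th percentiles) for the other genes tested. Assembly factor genes lie below 0 whichever core they hold, and among the other genes the box of those with both cores is the lowest.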

How the data were processed

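Messenger RNA of 2 cultures was sequenced in pairs on a NextSeq instrument, and reads were counted with featureCounts 2.0.3 on sacCer3, per the submitters' notes. The study names BWA as the aligner and Picard MarkDuplicates for its sequencing data in general, without saying whether RNA-seq is meant. The annotation and strand setting were not given in the sources used here. What the authors deposited are counts per gene, whole numbers, although they name the files FPKM. FPKM was computed here from the count, the coding length in the R64 annotation (RefSeq) and the library total. Of 6692 genes, 6007 matched that annotation by systematic name, and the other 685 (0.292% of counts in replicate 2 and 0.281% in replicate 1) had no FPKM. Coding length holds no untranslated regions or introns, and DBP2 and NOG2 have 1 intron each.

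Replicate ratios are ratios of counts over library totals (CPM) for genes with a mean of at least 10 counts, and a call is a ratio of 0.8 or less, or its inverse. There is 1 group of 2 samples, so nothing was tested and p-values are absent. Intervals and the floor of 3 counts cover counting error only. Sequence shared in 50-base stretches and overlap with reading frames of at least 100 codons were searched in the genome. Motifs were searched on both strands of the reference sequence, not in the genome of the strain. Every assembly factor gene was named with its mean, and values in each replicate were given for the markers, the late and export genes, SSF1 and SSF2, the 3 highest and 2 lowest of each stage, and the 3 highest and 3 lowest ratios. The genes, lists and stages were chosen with earlier results of these data known. Alternatives were TMM (edgeR 4.0.16) and DESeq2 (1.42.0) scaling, count filters, pseudocounts, single replicates, levels without division by length, and other stage borders. Scripts used Python 3.11.15, pandas 2.3.3, numpy 2.4.6, scipy 1.17.1 and R 4.3.3, and the ratio step was tested on simulated data.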

Additional observations from a re-analysis of the deposited data

How the results depend on the processing

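The replicate ratios and the order of nucleolar against late and export levels kept their direction under each alternative tried, while the level of the list against the typical gene and the order of some genes close in level, such as SSF1 and SSF2, TIF6 and DBP2, and MAK16 and NSA1, turned with the replicate read. The median log2 ratio of the assembly factor genes, -0.59 with library totals, was -0.55 with TMM, with DESeq2 size factors and with the all-gene median set to 1, -0.57 on the log2(FPKM+1) scale and -0.61 as a mean. The count past the fold was 54 at a ratio of 0.8 and 28 at 1.5-fold, and other scalings and count filters left it at 54. The ratio of nucleolar to late and export median FPKM, 0.577, was 0.828 without division by length, 0.658 and 0.653 as geometric means with pseudocounts of 1 and 0.1, 0.873 with NOG1, RLP24, TIF6 and MRT4 as nucleolar, and 0.541 to 0.579 with a replicate left out. The difference of their log2 ratios, 0.10, was 0.025 for means and 0.058 with those genes as nucleolar. The 300-base window gave PAC in 92.9% and RRPE in 87.5% of promoters. Longer motif letters took the share of promoters with PAC to 62.5% and with RRPE to 57.1%. The median gap within complexes, 1.94-fold, was 1.62-fold without division by length and 1.91-fold to 2.08-fold with a replicate left out. Relative to the all-gene median, the level of the list was 1.17, and 0.951 in replicate 2 alone and 1.38 in replicate 1 alone, so the call of above or below the typical gene rests on which library is read. Over all genes, 588 were called lower and 342 higher in replicate 2, or 505 lower and 397 higher with TMM. No paired analysis was possible because there is only 1 group. The precision is limited by 2 replicates, by the unknown strand setting, which leaves NOP4, NSA2, SPB1, NMD3 and REI1 uncertain through overlapping reading frames, and by the counts of DBP7, IPI1 and RSA4, the lowest of the list.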

Other observations

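Neighbouring genes, chosen for comparison after the ratios were seen, moved less than the assembly factor genes. Of the genes that start or end within 1 kb upstream and are not assembly factors of the list, the 27 transcribed divergently had a median ratio of replicate 2 to replicate 1 of 0.906, with 6 at a ratio of 0.8 or less (22.2%). The 26 in tandem had a median of 0.927, with 6 at or below it (23.1%). Both shares lie above the 9.50% of all genes tested. Of these neighbours, 3 divergent and 5 tandem genes belong to the other lists of ribosome synthesis, among them UTP9 upstream of RIX1 and RRP3 upstream of SSF1, and they hold 7 of the 12 lower neighbours. Of the 45 others, 5 were lower (11.1%). The 53 pairs hold 52 neighbours, since DEG1 lies upstream of both SPB4 and LOC1.

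Genes that belong to none of the lists of ribosome synthesis but hold both PAC and RRPE cores, also counted after the ratios were seen, numbered 186. Their median ratio was 0.872 and 34.9% were called lower (0.8 or less) in replicate 2. The 4227 unlisted genes with neither core had a median of 0.991 and 4.66% lower, those with PAC alone 0.968 and 9.35%, and those with RRPE alone 0.959 and 6.36%.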
